A study of Rattus norvegicus with 16 samples.

Results

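Phenformin, a biguanide and glucose-lowering drug that blocks respiratory complex I in mitochondria, was fed to rats for 3 days, and gene expression in the apex of the left ventricle was set against that of rats on untreated chow. The comparison uses 8 of the 16 arrays of the study: 4 labelled 3000 ppm phenformin at day 3 and 4 labelled control at day 3, chosen by their titles alone. The other 8 arrays, 4 phenformin and 4 control arrays from day 14, entered the fit as further groups and served for the comparison between days. All animals were male RccHan Wistar rats, aged 7 to 8 weeks at assignment, which carried no transgene or deletion. The phenformin group ate a diet with 3000 ppm of the drug for 3 days, and the control group ate the same kind of chow with 0 ppm. The protocol names 5 animals per group while 4 arrays per group were analysed here, and the array titles call them biological replicates. The hour of killing, the cage of each rat and the food it ate are not given in the sources used here. Levels are log2 values of the deposited array intensity, and a change is the mean of the phenformin arrays minus that of the control arrays. Its standard error (SE) comes from a limma fit. Each group holds 4 arrays (n = 4).

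The heart of a young rat still holds dividing cells, chiefly non-muscle cells, and the genes of DNA replication and mitosis mark them. In the circadian clock, BMAL1 and CLOCK switch on the Period, Cryptochrome and REV-ERB genes, whose products in turn hold the activators back; the REV-ERB proteins repress Bmal1 and other genes. Immediate early genes are transcribed within minutes of a stimulus without new protein synthesis. The transcription factor MondoA enters the nucleus when glucose 6-phosphate accumulates and drives Txnip and Arrdc4, whose products restrain glucose uptake.

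After 3 days on the drug, 28 of 58 measured mitosis genes and 6 of 38 histone genes fell, the REV-ERB genes Nr1d1 and Nr1d2 rose while Per1, Per2 and Cry1 fell, Txnip and Arrdc4 rose, and Otud1, Nr4a1, Errfi1, Sik1, Rgs2 and Atf3, genes that respond to signals or stress, fell. Of 22093 genes, 125 passed the threshold, a Benjamini-Hochberg adjusted p under 0.05 over all genes, which is 0.566%. Of these, 23 rose (0.104%) and 102 fell (0.462%). The share of each gene list that passed, given below, is to be read against these shares. The 125 comprised 83 genes that differed at least 1.5-fold, 10 higher and 73 lower with the drug, and 39 that differed at least 2-fold. For each of the 125, all 4 phenformin arrays lay on one side of all 4 control arrays, as they did for 1372 genes in all (6.21%; 518 higher, 2.34%, and 854 lower, 3.87%). The median change over all genes was 0.00014, and 50.1% of them lay above 0.

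**Figure D1:**
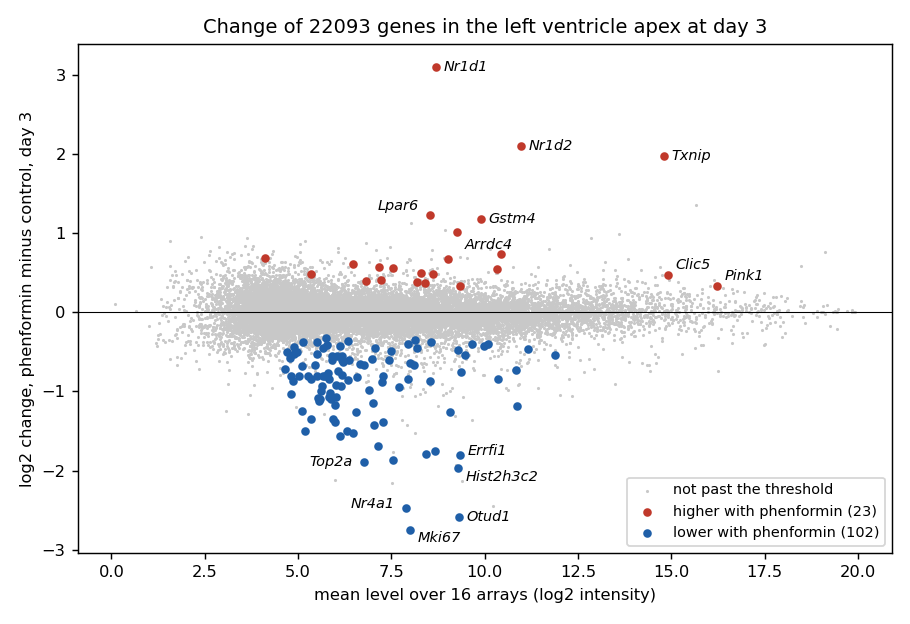
Each point is 1 of 22093 genes, with its mean log2 intensity over 16 arrays on the x axis and its log2 change at day 3, phenformin minus control, on the y axis. The 23 genes that rose (red) are led by Nr1d1 at 3.10, and the 102 that fell (blue) reach down to Mki67 at -2.75.

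The 8 arrays were alike in scale. Their median log2 intensities lay between 4.97 and 5.13, and the correlations between them were between 0.990 and 0.995. The median residual SD of a gene was 0.168. Of 7 measured cardiomyocyte markers 0 passed the test, with changes between -0.00 and 0.22, and the sum of their intensities was 3160000 to 3220000 in phenformin arrays and 3120000 to 3170000 in control arrays. Control replicates 2 and 3 lay farthest from their group mean over all genes. Without these 2 arrays, a setting tried only once the data had been seen, 3 genes passed the threshold, Nr1d2, Txnip and Gstm4, all of them higher (adjusted p = 0.00956 for each). The changes of other named genes in this setting are given below. Single arrays mattered too: of the 33 named genes that passed, 7 did so whichever array was left out (Mki67, Top2a, Ccna2, Kif11, Hist1h2ail1, Nr1d1 and Nr1d2), and the other 26 missed the threshold without at least 1 array. With only the 8 day 3 arrays fitted, 116 genes passed, 16 higher and 100 lower, and 10 of the 33 named genes missed the threshold (adjusted p = 0.0664 to 0.131).

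All 58 measured members of the mitosis list had a change below 0, against 49.9% of all genes, with a median of -0.635. Of them, 28 fell past the threshold, which is 48.3%, against 0.462% of all genes, and 0 rose. In 49 of the 58 the groups did not overlap, all of them lower with phenformin, against 3.87% of all genes. This list and the others were chosen with earlier results of these data known, so such shares describe the lists and are no test.

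Mki67, whose product coats chromosomes in dividing cells and serves as the standard marker of proliferation, had log2 levels of 6.49, 6.54, 6.75 and 6.61 in the phenformin arrays, against 9.41, 9.57, 9.05 and 9.34 in the control arrays. The 4 phenformin arrays lay together, with a gap of 2.30 log2 units between their highest and the lowest control. This is a 6.72-fold lower level (log2 change -2.75, SE 0.389, adjusted p = 0.00674). Top2a, the topoisomerase that untangles replicated chromosomes, stood at 5.55, 5.93, 6.02 and 5.81 in phenformin arrays, against 7.75, 7.94, 7.44 and 7.73 in control arrays. Its level was 3.71-fold lower (log2 change -1.89, SE 0.27, adjusted p = 0.0068), again with no overlap. Ccna2 encodes cyclin A2, which drives S phase and entry into mitosis; it had 5.57, 5.73, 5.64 and 5.63 in phenformin arrays, against 7.31, 7.38, 6.83 and 7.05 in control arrays, and was 2.83-fold lower (adjusted p = 0.0101).

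The machinery of the spindle and of cell separation moved the same way. Prc1, which bundles microtubules at the spindle midzone, had levels of 5.17, 5.28, 5.44 and 5.43 in phenformin arrays, against 7.10, 7.16, 6.54 and 6.75 in control arrays (change -1.56, SE 0.254, adjusted p = 0.014). The spindle motor gene Kif11 had 5.25, 5.34, 5.46 and 5.14 in phenformin arrays, against 6.88, 6.84, 6.53 and 6.50 in control arrays (change -1.39, SE 0.206, adjusted p = 0.00859). In both genes the control replicates 1 and 2 were the higher pair, and still the lowest control exceeded the highest phenformin array, by 1.10 log2 units for Prc1 and 1.04 for Kif11. Other members that fell, named outside the rule for named genes, include the spindle assembly factor Tpx2 (-1.26), the cytokinesis motor Kif23 (-1.17), the cytokinesis exchange factor Ect2 (-1.07), the kinetochore genes Cenpf (-1.08), Cenpe (-0.94) and Ndc80 (-0.92), the checkpoint kinases Bub1 (-0.86) and Ttk (-0.81), and the mitotic kinase gene Cdk1 (-0.68). Some of these members were dim with phenformin, with mean levels of 4.66 for Ttk, 4.76 for Cdk1 and 4.98 for Cenpf, while Tpx2 had 5.96. The array medians were 4.97 to 5.13, and detection was not analysed here. Well known mitotic genes that did not pass the test stood at -0.58 (Plk1, SE 0.156, adjusted p = 0.138), -0.43 (Ccnb1, SE 0.126, adjusted p = 0.182) and -0.41 (Cdc20, SE 0.127, adjusted p = 0.219).

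Many mitotic genes carry a pair of short promoter elements bound by the DREAM and MuvB complexes and by NF-Y: the cell cycle homology region (CHR), searched here as TTTGAA, and the CCAAT box, searched as CCAAT, each on both strands. They are shown because most matched promoters of the mitosis list hold them. The sequences are from RefSeq promoters of the GRCr8 build, in the sense of the gene, 5′ to 3′, with each match to a CHR or CCAAT box, or to its reverse complement, in capitals.
Mki67, chr1:199952684-199952793, minus strand: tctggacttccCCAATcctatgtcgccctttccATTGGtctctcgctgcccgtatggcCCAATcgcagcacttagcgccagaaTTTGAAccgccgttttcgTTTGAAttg
Top2a, chr10:84473104-84473163, minus strand: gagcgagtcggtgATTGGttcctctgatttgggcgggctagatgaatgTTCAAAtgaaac
Prc1, chr1:143659421-143659480, plus strand: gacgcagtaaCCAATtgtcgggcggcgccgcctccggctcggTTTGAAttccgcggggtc
Kif23, chr8:71320645-71320684, minus strand: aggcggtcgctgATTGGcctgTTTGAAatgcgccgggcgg
All 4 windows lie upstream of the annotated start. Promoters of 300 bases, from 250 before to 50 after the start, were matched for 48 of the 58 genes of the mitosis list, giving 49 promoters. Of these, 67.3% held the CHR letters, against 18.3% of all 33469 promoters in the table, 71.4% held a CCAAT box, against 37.5%, and 53.1% held both, against 7.41%. Among the 23 matched promoters of the 28 members that fell, 82.6% held the CHR letters and 60.9% held both. Over all genes that fell, 41.8% of 91 promoters held the CHR letters and 29.7% held both. A match is a description of the letters in this window and no proof of binding.

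DNA replication and histone genes followed in part. Of 42 measured replication genes, 5 fell past the threshold (11.9%, against 0.462% of all genes) and 0 rose. In this list 37 lay below 0, against 49.9% of all genes, and the median change was -0.237. Rrm2, the regulated subunit of ribonucleotide reductase, which makes deoxyribonucleotides, had 5.12, 5.57, 5.20 and 5.46 in phenformin arrays, against 6.90, 6.82, 6.24 and 6.80 in control arrays (change -1.35, SE 0.24, adjusted p = 0.0153). Esco2, a cohesin acetyltransferase that ties sister chromatids together, had 4.98, 4.96, 4.85 and 5.09 in phenformin arrays, against 6.27, 6.40, 5.69 and 6.01 in control arrays (change -1.12, SE 0.192, adjusted p = 0.014). In both genes control replicate 3 was the lowest of its group and still lay above every phenformin array. The other 3 members that fell were the bromodomain ATPase gene Atad2 (-0.81), the thymidine kinase gene Tk1 (-0.56) and Uhrf1, which maintains DNA methylation (-0.32), all named outside the rule. Rrm2 missed the threshold without control replicate 1 or 2 or phenformin replicate 1, 3 or 4 (adjusted p = 0.0508 to 0.0605), and Esco2 without control replicate 1 or 2 (adjusted p = 0.0536 and 0.0561). The sliding clamp gene Pcna stood at -0.35 (SE 0.0827, adjusted p = 0.0733) and the helicase subunit gene Mcm5 at -0.39 (SE 0.128, adjusted p = 0.255).

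Of 38 measured histone genes, 6 fell (15.8%, against 0.462% of all genes), 0 rose and 32 lay below 0, with a median of -0.297. Hist2h3c2, a gene of histone H3, had 8.53, 8.43, 8.24 and 8.35 in phenformin arrays, against 10.31, 10.82, 9.97 and 10.31 in control arrays, a 3.91-fold lower level (change -1.97, SE 0.354, adjusted p = 0.0161). The histone H2A genes Hist1h2ail1 and H2ac4 changed by -1.50 (SE 0.225, adjusted p = 0.00859) and -1.42 (SE 0.243, adjusted p = 0.014). Near-identical histone genes share sequence, so the array cannot be assumed to tell them apart, and the same holds for Rrm2l1 (-1.52, SE 0.264, adjusted p = 0.014), a copy of Rrm2. Hist2h3c2 missed the threshold without control replicate 1 or 2 or phenformin replicate 3 or 4 (adjusted p = 0.0536 to 0.0658), and H2ac4 and Rrm2l1 without control replicate 2 (adjusted p = 0.0561 and 0.0605). In all, 39 of the 102 genes that fell belong to the mitosis, replication or histone lists. Outside them, and named after their values were seen, the fallen genes also hold the formin gene Diaph3 (-0.99), the centriole kinase gene Plk4 (-0.81), the mitotic kinase gene Mastl (-0.77), the nuclear lamina gene Lmnb1 (-0.67), the retinoblastoma relative Rbl1 (-0.65) and the S phase kinase subunit gene Dbf4 (-0.63).

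The plot of list medians by array shows that the mitosis list sat at -0.45, -0.26, -0.31 and -0.30 in the phenformin arrays, relative to each gene's mean over 16 arrays, against 0.40, 0.51, 0.24 and 0.33 in the control arrays. Day 14 arrays lay between -0.30 and 0.12 with phenformin and between -0.38 and 0.29 in controls. The changes of this list were about as large without control replicates 2 and 3: Mki67 then had -2.78, Top2a -1.91, Ccna2 -1.54 and Kif11 -1.39, Prc1 -1.60, and the list median was -0.637 (-0.635 with them), although 0 of its members then passed the threshold (adjusted p = 0.106 to 0.115 for these 5 genes). Rrm2 then had -1.51, Esco2 -1.17 and Hist2h3c2 -1.92, and each missed the threshold. Without single arrays, 14 members passed when control replicate 1 was left out, 9 without control replicate 2, and 14, 17 and 12 without phenformin replicates 1, 3 and 4. Prc1 missed the threshold without control replicate 2 (adjusted p = 0.0531).

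Markers of stromal cells were compared beside the dividing-cell genes. Of 14 fibroblast markers 13 lay below 0, with a median of -0.475, and 0 passed the test; their summed intensity was 105000 to 149000 in phenformin arrays and 153000 to 188000 in control arrays. Of 13 macrophage markers 12 lay below 0, with a median of -0.312 and sums of 2390 to 3090 in phenformin arrays and 3080 to 3780 in control arrays. The dimmest fibroblast marker averaged 5.96 and the dimmest macrophage marker 5.02 on the log2 scale, where the array medians were 4.97 to 5.13, and detection was not analysed here. Of 12 endothelial markers 6 lay below 0, with a median of -0.021. Their part in the fall of the mitosis genes was not tested, and fewer cells of a type cannot be told apart here from less RNA per cell.

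**Figure D2:**
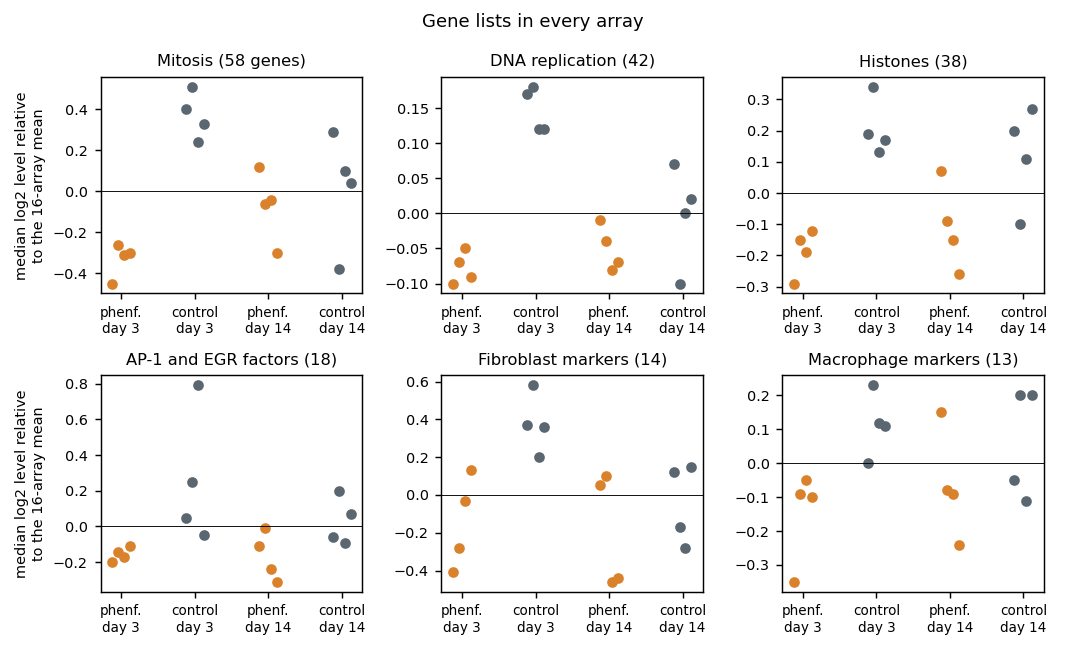
Each point is 1 array, and the y axis gives the median log2 level of a gene list relative to each gene's mean over 16 arrays, for phenformin (orange) and control (grey) hearts at day 3 and day 14. At day 3 the mitosis list lies between -0.45 and -0.26 with phenformin and between 0.24 and 0.51 in controls, while control replicate 3 stands at 0.79 for the AP-1 and EGR factors.

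In the clock, the repressor arm split. Of its 8 measured members 2 rose and 3 fell, so 62.5% passed the threshold, against 0.566% of all genes. Nr1d1, which encodes REV-ERB alpha, had levels of 10.67, 9.03, 9.98 and 10.31 in phenformin arrays, against 6.73, 6.56, 6.90 and 7.39 in control arrays. It was 8.58-fold higher, with a log2 change of 3.10 and a 95% interval of 2.38 to 3.83 (adjusted p = 0.00105). Nr1d2, the REV-ERB beta gene, had 12.26, 11.23, 11.76 and 11.93 in phenformin arrays, against 9.48, 9.50, 10.24 and 9.56 in control arrays, and was 4.29-fold higher (interval 1.62 to 2.59, adjusted p = 0.00105). Phenformin replicate 2 was the lowest of its group for both genes and still lay above all controls.

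The Period and Cryptochrome genes went the other way. Per1 had 7.06, 6.72, 7.05 and 6.32 in phenformin arrays, against 8.59, 9.39, 9.23 and 7.39 in control arrays (change -1.86, SE 0.359, adjusted p = 0.0251). Per2 had 6.59, 6.55, 6.40 and 6.52 in phenformin arrays, against 7.26, 7.85, 7.68 and 7.18 in control arrays (change -0.98, SE 0.166, adjusted p = 0.014). Cry1 had 7.10, 7.57, 7.26 and 7.20 in phenformin arrays, against 8.26, 8.42, 8.35 and 7.87 in control arrays (change -0.94, SE 0.127, adjusted p = 0.00477). Per2 and Cry1 are outside the rule for named genes. In all 3 genes control replicate 4 was the lowest of its group, and it lay 0.33 above the highest phenformin array for Per1. Cry1 has another, dimmer probe set, whose change was -0.24. The remaining repressors did not pass the test, with Cry2 at -0.54 (adjusted p = 0.0759), Per3 at 0.28 and Ciart at 0.06.

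The activator arm and the output genes changed less. Of 5 activators 0 passed. Bmal1, the partner of CLOCK and a REV-ERB target, had 9.77, 10.05, 10.02 and 10.05 in phenformin arrays, against 10.64, 10.50, 10.42 and 10.30 in control arrays, so the groups did not overlap, yet the change of -0.49 missed the threshold (SE 0.15, adjusted p = 0.198). Clock itself stood at -0.04 and Npas2, its relative, at 0.32. Of 11 output factors 1 fell: Nfil3, a repressor of D-box genes, with 5.69, 5.90, 5.63 and 5.58 in phenformin arrays, against 6.17, 6.51, 6.30 and 6.04 in control arrays (change -0.55, SE 0.111, adjusted p = 0.0306). Dbp, an activator of D-box genes, spread widely with phenformin, at 8.13, 6.99, 7.46 and 7.56, against 7.32, 7.17, 7.46 and 7.21 in control arrays, and its groups overlapped (change 0.24, adjusted p = 0.808). Without control replicates 2 and 3, Nr1d1 had a change of 2.94 (adjusted p = 0.0515), Nr1d2 of 2.27 (adjusted p = 0.00956), Per1 of -1.20 (adjusted p = 0.451) and Nfil3 of -0.40 (adjusted p = 0.478). Per1 missed the threshold without any 1 of the day 3 arrays other than control replicate 4 (adjusted p = 0.0522 to 0.0968), and Nfil3 without any 1 of control replicates 1 to 3 and phenformin replicates 1, 3 and 4 (adjusted p = 0.0652 to 0.109). Both also missed it with only the 8 day 3 arrays fitted (adjusted p = 0.0702 for Per1 and 0.0749 for Nfil3).

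The upstream windows of the REV-ERB genes hold letters searched for as sites of clock factors and are shown for that reason. The capitals mark the E-box CACGTG, the site of BMAL1 and CLOCK, in Nr1d1, and the ROR half-site AGGTCA, a site of ROR and REV-ERB receptors, with a CCAAT box as ATTGG, in Nr1d2.
Nr1d1, chr10:84229625-84229664, minus strand: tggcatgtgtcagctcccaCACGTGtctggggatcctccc
Nr1d2, chr15:9954824-9954863, plus strand: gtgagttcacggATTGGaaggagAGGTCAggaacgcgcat
An E-box was present in 7 of the 26 promoters matched for 19 of the 23 genes that rose (26.9%), and in 6.42% of all promoters. These shares count promoters, and a gene with several promoters entered with each of them. How many of the genes that rose have an E-box was not counted. The ROR half-site was present in 11.5% of the promoters of genes that rose and in 16.2% of all. In the clock repressor list 1 of 8 promoters held it (12.5%), so this match is common, and it is no proof of binding. The D-box TTANGTAA was found in 0 of the 26, against 2.24% of all, and the tandem carbohydrate response element in 0 of the 26, against 0.0329% of all.

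**Figure D3:**
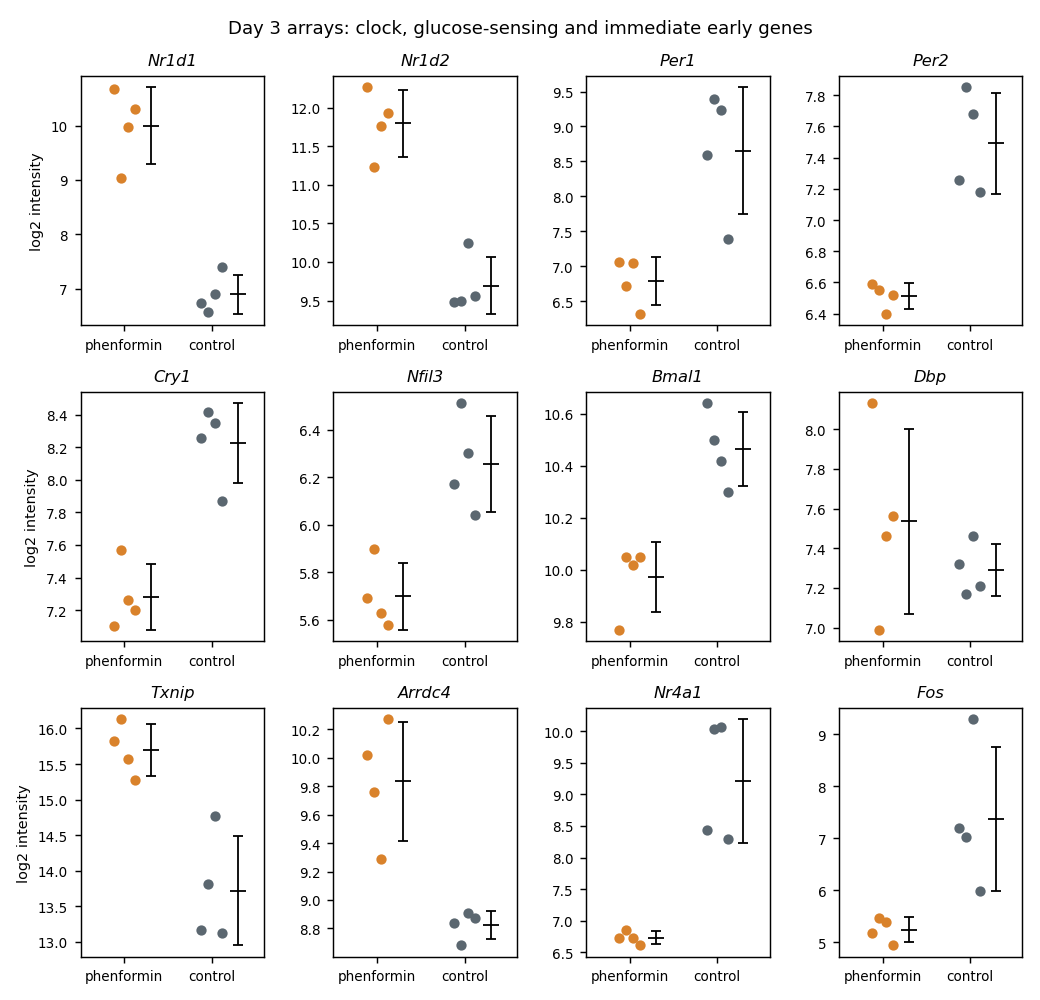
Each dot is 1 array (log2 intensity on the y axis), phenformin to the left in orange and control to the right in grey, and the bar beside each group is its mean with SD (n = 4). Nr1d1 lies at 9.03 or above in every phenformin array and at 7.39 or below in every control array, while Dbp overlaps and the controls of Nr4a1 and Fos scatter widely.

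Txnip and Arrdc4 rose together. Txnip, which encodes an alpha arrestin that binds thioredoxin and pulls glucose transporters from the membrane, had 15.82, 16.13, 15.57 and 15.27 in phenformin arrays, against 13.16, 13.81, 14.77 and 13.13 in control arrays. It was 3.95-fold higher (change 1.98, SE 0.334, adjusted p = 0.014), with control replicate 3 the closest to the phenformin arrays. Arrdc4, its nearest relative in function, had 10.02, 9.76, 9.29 and 10.27 in phenformin arrays, against 8.84, 8.68, 8.91 and 8.87 in control arrays, and was 2.02-fold higher (change 1.01, SE 0.181, adjusted p = 0.016). The other 7 of the 9 measured genes of the list did not pass, so 22.2% did, against 0.566% of all genes, and the list median was -0.054. Among them were the related arrestin genes Arrdc3 (-0.36, adjusted p = 0.599) and Arrdc2 (0.03, adjusted p = 0.97) and the sensors themselves, Mlxip, the MondoA gene (-0.08), and Mlxipl, the ChREBP gene (-0.17). Without control replicates 2 and 3, Txnip had a change of 2.55 (adjusted p = 0.00956) and Arrdc4 of 0.98 (adjusted p = 0.227). Txnip missed the threshold without control replicate 1 or 2 alone (adjusted p = 0.0513 and 0.0531), and Arrdc4 without either of these or phenformin replicate 1 or 4 (adjusted p = 0.0534 to 0.0624).

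Several genes that respond to signals fell, and in most of those described here the controls spread more widely than the phenformin arrays, with Rgs2 the exception (SD 0.783 with phenformin and 0.266 in controls). Nr4a1, an orphan nuclear receptor and immediate early gene, had 6.73, 6.86, 6.73 and 6.61 in phenformin arrays, against 8.44, 10.04, 10.07 and 8.29 in control arrays. Control replicates 2 and 3 were the high pair, and the lower control pair was still above every phenformin array. It was 5.57-fold lower (change -2.48, SE 0.428, adjusted p = 0.014). Its relatives Nr4a2 and Nr4a3 stood at -1.77 (SE 0.434, adjusted p = 0.0893) and -2.16 (SE 0.677, adjusted p = 0.222), so 1 of 3 members passed.

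Of 18 factors of the AP-1 and EGR kind 1 fell (5.56%), and 16 lay below 0 with a median of -0.410. The one that fell was Atf3, a stress-induced repressor, with 6.03, 7.24, 6.17 and 6.30 in phenformin arrays, against 7.78, 8.08, 9.35 and 7.30 in control arrays (change -1.69, SE 0.342, adjusted p = 0.0322). Its groups were apart by 0.06 log2 units, between phenformin replicate 2 and control replicate 4. Fos had 5.18, 5.47, 5.40 and 4.94 in phenformin arrays, against 7.19, 7.03, 9.29 and 5.98 in control arrays; its change of -2.12 missed the threshold (SE 0.489, adjusted p = 0.0671). Egr1 had 7.40, 7.79, 7.40 and 7.76 in phenformin arrays, against 8.54, 8.81, 11.32 and 7.77 in control arrays (change -1.52, SE 0.608, adjusted p = 0.393), and its groups overlapped. Control replicate 3 was the highest control for all 3 of these genes.

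Errfi1, a feedback inhibitor of EGF receptors, had 8.49, 8.74, 8.70 and 8.59 in phenformin arrays, against 10.22, 10.91, 11.34 and 9.26 in control arrays (change -1.80, SE 0.344, adjusted p = 0.0242). It was 1 of 15 members of the MAP kinase feedback list to pass (6.67%), while Dusp1 stood at -0.61 (adjusted p = 0.443) and Spry4 at -0.02. Sik1, a cAMP-induced kinase, had 7.39, 8.09, 7.53 and 7.53 in phenformin arrays, against 9.08, 9.93, 9.91 and 8.79 in control arrays (change -1.79, SE 0.291, adjusted p = 0.014). Rgs2, which ends signals of Gq-coupled receptors, had 7.99, 8.99, 7.30 and 7.38 in phenformin arrays, against 9.70, 9.65, 9.99 and 9.35 in control arrays (change -1.76, SE 0.302, adjusted p = 0.014). Phenformin replicate 2 was the highest of its group for both. The deubiquitinase gene Otud1 had 8.19, 8.63, 7.96 and 7.86 in phenformin arrays, against 10.16, 10.99, 12.54 and 9.29 in control arrays, with controls spread widely (SD 1.38), and changed by -2.58 (SE 0.527, adjusted p = 0.0343).

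Per1 and Errfi1, described above, were the 2 of 20 glucocorticoid targets to pass, both lower (10%, against 0.462% of all genes), with a list median of -0.336. The classical targets Fkbp5 and Tsc22d3 stood at -0.30 (adjusted p = 0.393) and -0.57 (adjusted p = 0.135). Of 13 Krüppel-like factors 0 passed, with Klf4 at -0.59 (adjusted p = 0.218), Klf15 at -0.18 and Klf9 at -0.07. The promoters of the AP-1, EGR and NR4A genes, matched for 14 of 21, held the cAMP response half-site TGACG in 71.4%, against 21.2% of all promoters, the full cAMP response element TGACGTCA, which contains it, in 2 of the 14 (14.3%), against 1.83%, and the CArG box, the site of serum response factor, in 21.4%, against 1.64%. The half-site was also more frequent in other sets: 39.6% of promoters of all genes that fell, 38.5% of those that rose and 38.8% of the mitosis list. The window of Nr4a1 is shown with the half-site, here on the other strand as CGTCA, in capitals.
Nr4a1, chr7:134260038-134260097, plus strand: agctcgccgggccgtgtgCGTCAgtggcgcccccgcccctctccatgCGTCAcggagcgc

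Without control replicates 2 and 3 the changes of these genes were smaller, by little for Rgs2 (-1.61, adjusted p = 0.237) and by more for others. Sik1 then had -1.30 (adjusted p = 0.227), Ppp1r15a, described with the stress-response list, -0.71 (adjusted p = 0.227), Nr4a1 -1.63 (adjusted p = 0.265), Otud1 -1.57 (adjusted p = 0.407), Errfi1 -1.11 (adjusted p = 0.406), Atf3 -1.10 (adjusted p = 0.334), Fos -1.34 and Egr1 -0.57. The median of the AP-1 and EGR list was then -0.190, and that of the NR4A receptors -0.912, against -2.158 with all arrays. With 1 array left out, Nr4a1 and Rgs2 missed the threshold without control replicate 2 or phenformin replicate 4 (adjusted p = 0.0549 to 0.0561), and Sik1 without control replicate 2 (adjusted p = 0.0531). Errfi1 and Otud1 missed it without any 1 of the day 3 arrays other than control replicate 4 (adjusted p = 0.0554 to 0.111), and Atf3 without any 1 of control replicates 1 to 3 and phenformin replicates 1, 3 and 4 (adjusted p = 0.0558 to 0.122). With only the 8 day 3 arrays fitted, Errfi1, Otud1 and Atf3 missed it as well (adjusted p = 0.0664, 0.0843 and 0.124).

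The stress-response list of ATF4 and related targets, a pathway that many inhibitors of respiration switch on, showed no common rise. Of 37 members 1 rose and 2 fell (8.11%), 26 lay below 0, and the median was -0.083. Stc2, which encodes the secreted glycoprotein stanniocalcin 2 and is named outside the rule, rose from that list, with 8.78, 8.65, 8.65 and 8.89 in phenformin arrays, against 8.40, 8.23, 8.21 and 8.21 in control arrays (change 0.48, SE 0.104, adjusted p = 0.048). Those that fell were Atf3 and Ppp1r15a, the phosphatase subunit that reverses the response, with 5.66, 5.69, 5.38 and 5.58 in phenformin arrays, against 6.47, 6.56, 6.89 and 6.10 in control arrays (change -0.93, SE 0.154, adjusted p = 0.014), which missed the threshold without control replicate 2 (adjusted p = 0.0531). The hormone genes Gdf15 and Fgf21 had changes of -0.15 (SE 0.126) and -0.08 (SE 0.151) and did not pass. Mitochondrial chaperones gave 0 of 13 past the threshold, with a median of 0.048.

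Genes of the drug's own setting in the cell moved little. Biguanides inhibit complex I. Of 43 nuclear-encoded genes for its subunits and assembly factors, 0 passed, 26 lay above 0 and the median was 0.021, with changes between -0.21 and 0.43. Of 35 subunits of complexes II to V 0 passed (median -0.002), as did 0 of 74 mitochondrial ribosomal proteins (median 0.009) and 0 of 12 genes of AMPK, the energy-sensing kinase, and its upstream kinases (median 0.012, changes -0.07 to 0.24). Of 7 cation transport genes, the kind that can carry biguanides into cells, 0 passed; Slc22a3 stood at 0.10 (SE 0.124). In glycolysis and glucose handling 0 of 29 passed (median -0.024), and in the citric acid cycle 0 of 17 (median -0.121). The citric acid cycle genes leaned downward, with 12 of the 17 below 0. In 5 of them the groups were apart and lower, against 3.87% of all genes, and in 1 apart and higher, against 2.34%. Among 24 targets of hypoxia 0 passed, with Vegfa at -0.05 (SE 0.105).

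Fat oxidation leaned upward without a gene past the threshold. Of its 25 genes 21 lay above 0, against 50.1% of all genes, with a median of 0.198. In 4 the groups did not overlap, all higher, against 2.34% of all genes. Ech1, an enzyme for the oxidation of unsaturated fatty acids, had 14.24, 13.94, 14.25 and 13.84 in phenformin arrays, against 13.26, 13.49, 13.15 and 13.69 in control arrays (change 0.67, SE 0.146, adjusted p = 0.0503), just short of the threshold; it passed in 7 of 28 alternatives. Eci1, an isomerase of the same pathway, stood at 0.48 (SE 0.114, adjusted p = 0.0755). Of 25 PPAR alpha targets 1 rose, Txnip (4%), and 20 lay above 0, with a median of 0.198. Pdk4, which holds back glucose oxidation, had 15.02, 15.60, 15.58 and 12.53 in phenformin arrays, against 14.07, 13.22, 16.91 and 13.50 in control arrays; phenformin replicate 4 was the lowest and control replicate 3 the highest of all 8, and the change did not pass (0.26, SE 0.771, adjusted p = 0.964).

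The remaining genes that rose were mostly single genes of different kinds. Lpar6, a receptor for lysophosphatidic acid, had 9.08, 8.69, 8.95 and 9.65 in phenformin arrays, against 7.80, 7.86, 7.52 and 8.28 in control arrays, a 2.34-fold higher level (change 1.23, SE 0.212, adjusted p = 0.014). Gstm4, a glutathione S-transferase of the mu class, had 10.12, 10.47, 10.45 and 10.52 in phenformin arrays, against 8.84, 9.99, 8.64 and 9.33 in control arrays (change 1.19, SE 0.213, adjusted p = 0.0161). Its relatives Gstm6l (0.61, SE 0.116, adjusted p = 0.0228) and Gstm6 (0.48, SE 0.084, adjusted p = 0.014; outside the rule) rose as well. These paralogs are similar in sequence, and their probes may not tell them apart. Lpar6 missed the threshold without any 1 of control replicates 1 to 3 or phenformin replicate 4 (adjusted p = 0.0507 to 0.0554), Gstm4 without control replicate 1 or 3 or phenformin replicates 2, 3 or 4 (adjusted p = 0.0507 to 0.0627), and Gstm6l without any 1 of the day 3 arrays other than control replicate 4 (adjusted p = 0.0522 to 0.0824). With only the 8 day 3 arrays fitted, Gstm4 missed it (adjusted p = 0.0802). Without control replicates 2 and 3, Lpar6 had a change of 1.05 (adjusted p = 0.265) and Gstm6l of 0.62 (adjusted p = 0.255). Of 24 targets of the redox factor NRF2, Gstm4 was the 1 to pass (4.17%), with Nqo1 at 0.08, Hmox1 at -0.36 (SE 0.184) and Gclc at -0.66 (adjusted p = 0.101). In 6 of the 24, Gstm4 among them, the groups were apart and higher, against 2.34% of all genes. In 2 they were apart and lower, against 3.87%, and the list median was -0.045.

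Small changes passed where the arrays were tight. Clic5, a chloride intracellular channel named outside the rule, had 14.98, 15.12, 15.09 and 15.14 in phenformin arrays, against 14.63, 14.59, 14.55 and 14.65 in control arrays (change 0.48, SE 0.0592, adjusted p = 0.00324). Pink1, the kinase that marks damaged mitochondria for removal, had 16.25, 16.37, 16.20 and 16.33 in phenformin arrays, against 15.96, 16.14, 15.79 and 15.91 in control arrays, so the gap between the groups was 0.06 (change 0.33, SE 0.0675, adjusted p = 0.0322). It was 1 of 27 autophagy and lysosome genes to pass (3.7%). The mitochondrial ubiquitin ligase gene Mul1 rose by 0.34 (SE 0.0727, adjusted p = 0.0477; outside the rule) and Acad10, an acyl-CoA dehydrogenase of mitochondria, by 0.68 (SE 0.142, adjusted p = 0.0397). C6h14orf180 rose by 0.73 (SE 0.142), 4932431L22Rikl by 0.69 (SE 0.145), the membrane protein gene Gypc of red blood cells and other cells by 0.56 (SE 0.101), and Gimap6, a GTPase gene of immune cells, by 0.57 (SE 0.124). Pink1 missed the threshold in 10 of 27 alternatives, Gimap6 in 15 of 28 and 4932431L22Rikl in 16 of 26. Clic5 and Mul1, like every gene named outside the rule, were not followed singly under the alternatives. Acad10 and C6h14orf180 each missed it without any 1 of 6 arrays (adjusted p = 0.0544 to 0.137) and Gypc without any 1 of 4 (adjusted p = 0.0598 to 0.0634). Among the misses is the fit of only the 8 day 3 arrays, with an adjusted p of 0.131 for Pink1, 0.0664 for Gimap6, 0.122 for 4932431L22Rikl and 0.0669 for Gypc. Without control replicates 2 and 3, the changes were 0.35 for Pink1, 0.42 for Gimap6, 0.69 for 4932431L22Rikl, 0.55 for Gypc, 0.67 for Acad10 and 0.88 for C6h14orf180, and all 6 missed it.

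No collagen and no red blood cell marker passed the threshold, although most had a change below 0. Of 17 collagens 16 lay below 0 with a median of -0.221. Among them 6 did not overlap between groups, all lower, against 3.87% of all genes. Col3a1 had 13.16, 13.05, 13.50 and 13.59 in phenformin arrays, against 14.28, 14.50, 14.02 and 14.13 in control arrays (change -0.91, SE 0.225, adjusted p = 0.0939), and Col1a1 stood at -0.84 (SE 0.231, adjusted p = 0.147). Mfap4, a matrix gene among the fibroblast markers, stood at -1.04 (SE 0.238, adjusted p = 0.0646), and Adamts1, a secreted protease, at -1.93 (SE 0.423, adjusted p = 0.0527). Outside the lists and the rule, the gene of the matrix proteoglycan asporin, Aspn, did fall, with a change of -0.85 (SE 0.17, adjusted p = 0.0307) and another probe set at -0.82. So did the secreted protease gene Adamts17 (-0.43, adjusted p = 0.0161) and Mest, with a change of -1.14 (SE 0.19, adjusted p = 0.014). Another, dimmer probe set of Mest had a smaller change of -0.54. The 12 red blood cell markers all lay below 0 with a median of -0.396 (Slc4a1 -1.01, SE 0.226, adjusted p = 0.0578; Epb42 -0.47), yet the globin gene Hba-a1 stood at -0.17 and the summed intensity of the list was 781000 to 1110000 in phenformin arrays and 946000 to 1100000 in control arrays. All 7 mast cell markers lay below 0 as well (median -0.223; Cpa3 -0.64, Mcpt1 -0.52), with 0 past the threshold, while the lists of monocytes and neutrophils, lymphocytes and platelets had medians of 0.081, 0.003 and -0.040. With only the 8 day 3 arrays fitted, Col3a1 (adjusted p = 0.0199), which is also a fibroblast marker, and Slc4a1 (adjusted p = 0.0324) passed.

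Cytosolic ribosomal proteins and interferon-stimulated genes leaned the other way. Of 70 ribosomal protein genes 66 lay above 0, against 50.1% of all genes, with a median of 0.156, and 0 passed. In 11 of them the groups were apart, all higher, against 2.34% of all genes. Rpl26 stood at 0.32 (SE 0.11) and Rpl23a at 0.27 (SE 0.096). Of 22 interferon-stimulated genes 21 lay above 0 with a median of 0.199. In 0 of them were the groups apart, which in so short a list is near the 2.34% of all genes. Mx2 had 9.38, 10.19, 8.66 and 10.23 in phenformin arrays, against 8.63, 7.71, 8.58 and 9.38 in control arrays (change 1.04, adjusted p = 0.534). Among heart stress genes 0 of 14 passed. Nppa, the atrial natriuretic peptide, had 16.24, 16.55, 15.87 and 17.11 in phenformin arrays, against 15.16, 15.00, 14.28 and 15.92 in control arrays, so control replicate 4 overlapped with phenformin replicate 3 (change 1.36, SE 0.42, adjusted p = 0.214). Nppb stood at 0.13 (SE 0.365). Myh7, the slow beta myosin, had 19.37, 19.45, 19.28 and 19.52 in phenformin arrays, against 18.66, 19.28, 18.07 and 18.53 in control arrays (change 0.77, SE 0.192, adjusted p = 0.0958).

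**Figure D4:**
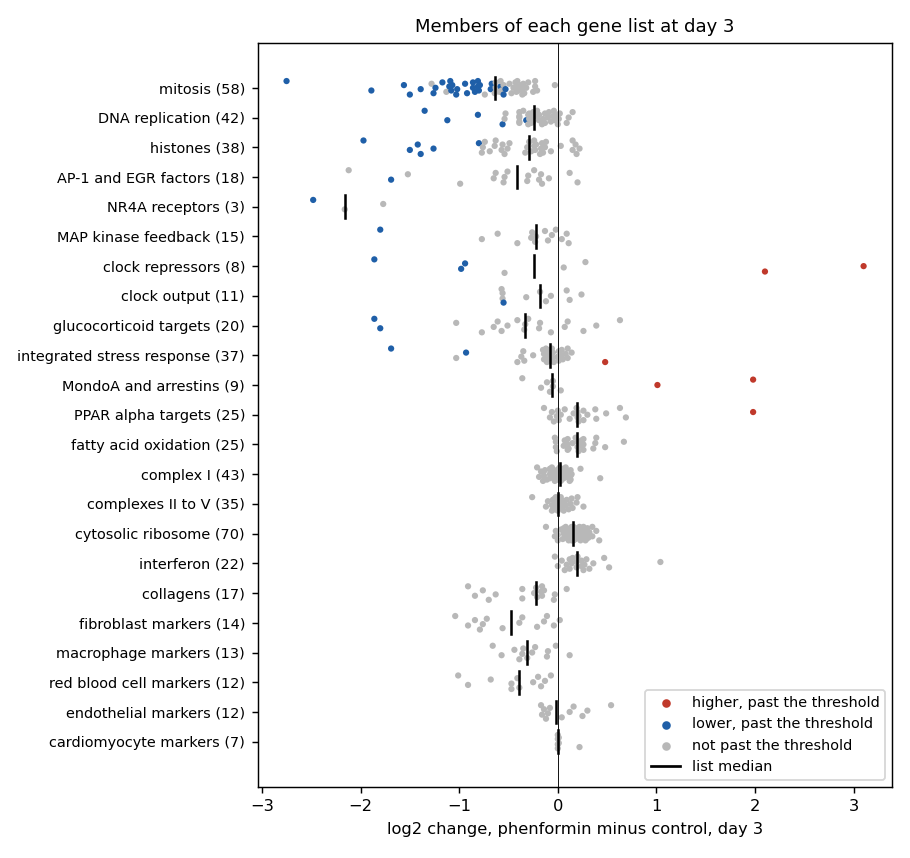
Each point is a gene of the named list, placed by its log2 change at day 3 (phenformin minus control, x axis), red or blue where it passed the threshold and grey where it did not; the black bar is the list median and the number of measured members is in parentheses. In the mitosis list 28 of 58 members are blue and the median is -0.635, while complex I centres on 0.021.

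Set beside day 14, where 16 genes passed the threshold (0.0724%), 103 of the 125 genes had a change of the same sign, 18 of the 23 that rose and 85 of the 102 that fell, and 5 passed on both days: Nr1d1, Nr1d2, Stc2, Cry1 and Ptp4a3, a phosphatase gene named after its values were seen (0.55 at day 3 and 0.60 at day 14). The share of all genes with the same sign on both days was not counted here, so the 103 have no baseline. At day 14 the median change was -0.0298 over all genes and -0.09 over the 125. The 2 comparisons have no arrays in common but share the estimate of the spread. The 39 mitosis, replication and histone genes had a median change of -1.03 at day 3 and -0.12 at day 14, where they ranged between -0.51 and 0.17. Mki67 stood at -0.19 and Top2a at -0.22 at day 14. There control replicate 2 was low for both: 6.73 for Mki67, against 9.10, 8.24 and 8.41 in the other controls. For Top2a it had 5.87, against 7.60, 7.07 and 7.00. Phenformin replicate 4 was also the lowest of its day 14 group, at 6.89 for Mki67 and 6.13 for Top2a. The day 14 changes without single arrays are not given here. The 7 fallen genes of the clock, immediate early, feedback and glucocorticoid lists had medians of -1.69 at day 3 and -0.84 at day 14. Nr1d1, Nr1d2, Txnip and Arrdc4 stood at 2.44, 2.00, 1.82 and 0.95 at day 14, and Gstm4 at -0.12.

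The difference between the effects of the 2 days was tested for every gene, and 0 passed after adjustment in limma (0%), while 1546 had an unadjusted p under 0.05 (7%). The smallest adjusted p among the 125 was 0.338. Unadjusted p-values under 0.05 were found for 93 of the 125, and for 38 of the 39 mitosis, replication and histone genes, all chosen for their day 3 change, which enters this difference. For Mki67 the difference of day 3 minus day 14 had a 95% interval of -3.72 to -1.39 (adjusted p = 0.353), for Nr1d2 of -0.58 to 0.79 (adjusted p = 0.968) and for Txnip of -0.84 to 1.16 (adjusted p = 0.965). None of these differences can be called.

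**Figure D5:**
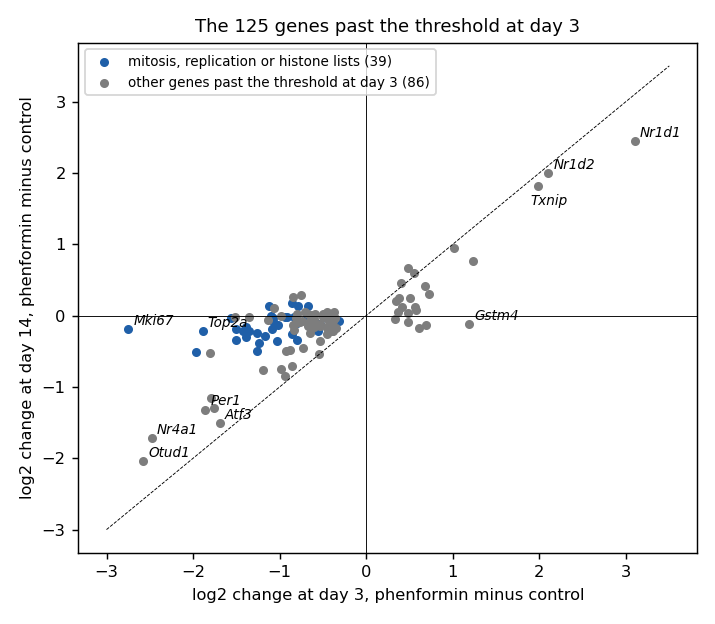
Each point is 1 of the 125 genes past the threshold at day 3, with its log2 change at day 3 on the x axis and at day 14 on the y axis (phenformin minus control on both); the dashed line marks equal changes. The 39 genes of the mitosis, replication and histone lists (blue) spread from -2.75 to -0.32 at day 3 and from -0.51 to 0.17 at day 14, while Nr1d1, Nr1d2 and Txnip lie near the line.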

How the data were processed

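RNA from the left ventricle apex, 30 mg of tissue, was labelled from 300 ng of total RNA and hybridised to arrays, per the labels' protocols. The deposited intensities are linear, 1 per probe set (68842) and array, and were made with RMA, per the submitters' processing notes; the sources used here give neither the version nor how RMA values became linear. Folds therefore refer to the deposited scale. Their log2 was taken with no further normalisation or filter. Of 23446 probe sets with 1 gene symbol, the brightest stood for each of 22093 genes; 505 had several symbols and 44891 were unnamed here. Genes were tested with limma 3.58.1 (R 4.3.3), 1 mean per group over all 16 arrays, a mean-variance trend and Benjamini-Hochberg adjustment over all genes, two-sided; the fit was tested on simulated data. The number of arrays limits the precision. P-values set each change against the spread of arrays within groups, estimated over all 16 arrays and drawn toward the trend over all genes.

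Genes were named by a rule: of those past the threshold with groups apart, the 12 largest rises and 16 largest falls; up to 2 called members of each of 57 lists (42 of pathways, 15 of cell types); the 2 of smallest p in lists with no call but a common sign; and fixed markers. The members and lists were chosen with earlier results of these data known. Promoters were read from RefSeq (GRCr8). Same-numbered phenformin and control arrays were not paired: the correlations of their deviations from the group means were -0.04, -0.18, 0.08 and 0.02.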

Additional observations from a re-analysis of the deposited data

Results flagged for a closer look

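Among 132 checks of a named gene in a day 3 group, 6 held an array far from the other 3, by Dixon's test of the gap against the group's range at the 95% level; chance alone gives about 1 in 20. The phenformin arrays gave 3 of them: Slc4a1 was 8.12 in replicate 4, against 8.86, 8.74 and 8.82 in the other phenformin arrays, Bmal1 was 9.77 in replicate 1, against 10.05, 10.02 and 10.05, and Hmox1 was 6.92 in replicate 2, against 6.48, 6.43 and 6.39. The control arrays gave the other 3: Nr1d2 was 10.24 in replicate 3, against 9.48, 9.50 and 9.56 in the other controls, Rrm2 was 6.24 in replicate 3, against 6.90, 6.82 and 6.80, and Vegfa was 13.14 in replicate 4, against 13.03, 13.03 and 13.04. When all 68842 probe sets were tested together, 16 passed, and 2 of these have no gene symbol here and appear in no comparison above.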

How the results depend on the processing

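The count of 125 genes was 16 over all probe sets, where both the number of tests and the fit of the spread differ. Which of these lowered the count was not tested. The count was 83 with a change of 1.5-fold required and 13 at an adjusted p under 0.01, both stricter by construction. Leaving out 1 array gave between 22 and 149 genes; the day 3 arrays set the low end (49, 22 and 66 without control replicates 1, 2 and 3, and 55, 75, 62 and 33 without phenformin replicates 1 to 4). It was 3 without control replicates 2 and 3, chosen after seeing the data, 113 with the replicate number as a block and 133 with quantiles normalised again, which made 26.3% of the called genes higher, against 18.4%; the cause was not tested. The count of called mitosis genes, 28, was 11 with the genes under the 50th percentile of level left out, where fewer genes were tested. Scaling moved the median of all genes by at most 0.0134. The count for the difference between days was 0 to 1 with 1 array left out, 1 without day 3 control replicate 2. Of 1832 values of the 66 named genes under an alternative, 1622 kept their direction and side of the threshold, 169 lost the call, 34 gained it and 7 reversed, all in genes never called and without 1 day 3 array: Pdk4 (-0.14, -0.05, -0.05 and -0.04 without control replicates 2 and 4 and phenformin replicates 2 and 3; range -0.14 to 1.09), Slc22a2 (0.03; range -0.37 to 0.03) and Fgf21 (0.06; range -0.18 to 0.06) without control replicate 3, and Nppb (-0.00; range -0.00 to 0.28) without phenformin replicate 2. Of the 33 called named genes 1, Nr1d2, passed in every alternative fit. Genes named outside the rule, such as Per2, Cry1, Stc2, Gstm6, Aspn, Mest and Ptp4a3, were not followed singly under the alternatives. Detection calls were not analysed here, so dim genes carry no bound.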
